A study of Mus musculus with 8 samples.

Results

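The 10 genes described here encode interferon-induced GTPases of the mouse heart endothelium. They comprised 6 immunity-related GTPases (IRG family: Tgtp1, Tgtp2, Igtp, Irgm1, Irgm2 and Iigp1) and 4 guanylate-binding proteins (GBP family: Gbp2, Gbp3, Gbp4 and Gbp7). They were found by name in a table of 16791 genes, and all 10 passed the filter on low counts in each fit. The members were chosen by values measured in these same mice, since Tgtp2 and Tgtp1 led a cluster of mostly healthy cells in an earlier clustering and their levels were spread among the healthy mice. The spread among healthy mice, and the difference of Tgtp1 and Tgtp2 between groups, are therefore given as descriptions with no test.

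Single-cell RNA sequencing was performed on cardiac endothelial cells of 8 adult Pdgfb-iCreERT2-R26R-Brainbow2.1 mice, male and female, each sequenced as 1 library. All mice, controls included, received a single dose of tamoxifen at 150 mg per kg, which switches on the Confetti fluorophores in cells that express the Cre driven by Pdgfb, a gene of the vascular endothelium. The 4 mice of the MI group (244, 250, 255 and 256) then had a myocardial infarction, made by tying off the left anterior descending artery for good, and were studied 7 days later, at 21 days after tamoxifen. The 4 healthy mice (227, 228, 239 and 240) were studied at the same time after tamoxifen without the ligation, so ischaemia and the operation itself cannot be told apart. Cells were sorted as CD31+ Confetti+ podoplanin-, so unlabelled endothelial cells and podoplanin-bearing lymphatic cells were selected against.

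Some libraries shared cells. Healthy 228 and Healthy 239 had 2041 cell barcodes in common, 2030 of which carried nearly the same counts, and Healthy 227 and Healthy 228 had 316 in common, 301 of them with nearly the same counts. The smaller copy of each such cell was left out, which removed 55.3% of Healthy 228 and 10.9% of Healthy 227. The labels do not state which library these cells belong to, so the levels of these healthy mice depend on this choice. With the copies kept, the endothelial cells of Healthy 227 had 366 in place of 10 UMIs of Xist, a gene transcribed from the inactive X chromosome of females. They had 472 UMIs of the Y-linked Ddx3y either way. The copies left out of this library thus carried Xist and no Ddx3y, unlike the cells kept there. Those left out of Healthy 228 held few UMIs of the members for their depth. With them kept, Tgtp2 there had 643 in place of 632 UMIs and fell from 131 to 92.4 CPM, and Iigp1 had 4103 in place of 3730 UMIs and fell from 774 to 589.6 CPM. Of 28695 cells left, 26640 lay in 11 of 18 clusters with endothelial markers (10670 from healthy mice and 15970 from MI mice), and levels are given over these cells as unique molecular identifiers (UMIs) per 1000000 (CPM). Total UMIs per mouse were 4816175 to 7570960 in the healthy group and 14271553 to 23507868 in the MI group. Each of the 8 endothelial markers was found in every mouse, and Pecam1, which encodes CD31, was at 735 to 979 CPM. Ddx3y was at 78.6 CPM in Healthy 227 and 82.0 CPM in MI 244 and had no UMI in the other 6 mice, so each group held 1 library from a male.

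The members lay on 4 chromosomes, and several of them adjoined each other (GRCm38, the build that mm10 names, with GENCODE M21 gene models). Chromosome 11 carried Irgm1 (chr11:48861968-48871683, minus strand), Tgtp1 (chr11:48985327-48994172, minus strand), Tgtp2 (chr11:49057194-49064206, minus strand), Igtp (chr11:58199556-58207591, plus strand) and Irgm2 (chr11:58199618-58222782, plus strand), and the models of Igtp and Irgm2 overlap on the same strand. Chromosome 3 carried Gbp7 (chr3:142530342-142550149), Gbp3 (chr3:142560026-142573209) and Gbp2 (chr3:142620602-142638008), all on the plus strand. Gbp4 lay on the minus strand of chromosome 5 (chr5:105115767-105139586), and Iigp1 on the plus strand of chromosome 18 (chr18:60376027-60392634).

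IRG and GBP proteins are GTPases of cell-autonomous immunity. Interferon-gamma induces them through gamma-activated sites (GAS) in their promoters, and type I interferons through interferon-stimulated response elements (ISRE). Effector IRG proteins (Tgtp1, Tgtp2 and Iigp1) gather on the vacuoles of intracellular parasites and bacteria, whereas the regulatory ones (Igtp, Irgm1 and Irgm2) sit on the cell's own membranes and keep the effectors inactive there. GBP proteins coat vacuoles and cytosolic bacteria and assist the opening of these compartments. In blood vessels they are known as markers of endothelial cells exposed to inflammatory cytokines.

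Promoters of 8 of the 10 members, from 250 bases before to 50 bases after a start site, were matched by symbol in RefSeq (GRCm38.p6). They were searched on both strands for an ISRE, spelled GAAA, 2 bases of any kind and GAAA again, and for TTCNNNGAA as a GAS. All 8 genes had at least 1 ISRE match, against 3.99% of 27025 genes with promoters of this length, and 5 had a GAS match, against 9.55%. Tgtp1, Tgtp2, Igtp and Irgm2 shared an arrangement in which the GAS is followed 2 bases later by the ISRE, a pattern put together after these promoters were seen. It occurred in 5 promoters in all, of which Gm12185 was the only other gene. The windows of these 4 genes are shown because Tgtp1 and Tgtp2 were spread further among healthy mice than Igtp and Irgm2 (below), although the matched letters are alike, and those of Irgm1 and Gbp2 because they carry the differences that passed a test between groups. Sequences read 5′ to 3′ along the gene, capitals mark the motif matches, and a match is not a measured binding site.
Tgtp1 (chr11:48992299-48992349, minus strand): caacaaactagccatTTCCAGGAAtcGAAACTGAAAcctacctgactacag
Tgtp2 (chr11:49064258-49064308, minus strand): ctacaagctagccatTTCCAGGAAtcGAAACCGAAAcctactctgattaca
Igtp (chr11:58199496-58199546, plus strand): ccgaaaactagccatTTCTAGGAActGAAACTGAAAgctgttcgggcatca
Irgm2 (chr11:58214887-58214937, plus strand): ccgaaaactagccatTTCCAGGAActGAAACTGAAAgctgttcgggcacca
Irgm1 (chr11:48871420-48871465, minus strand): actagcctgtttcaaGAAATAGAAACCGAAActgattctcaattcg
Gbp2 (chr3:142620589-142620628, plus strand): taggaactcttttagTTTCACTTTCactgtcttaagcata
The capitals of Irgm1 hold 2 ISRE matches that overlap, and the ISRE of Gbp2 reads on the opposite strand. Neither of these promoters had a GAS match within the window searched.

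Near-identical copies limit what the counts can tell apart. Of the 75-base stretches of Tgtp1 transcripts, 77.2% occurred in another gene, and of those of Tgtp2, 85.2%, nearly always in the partner of the pair. In the last 500 bases of each transcript, where a 3′ assay reads, the share was 100%. The split between Tgtp1 and Tgtp2, and with it the level of each copy, is therefore uncertain. In counts over the members the copies are not independent of each other. Tgtp1 took 39.6% to 46.7% of the UMIs of the pair in the 8 mice, and every mouse's exact Clopper-Pearson interval overlapped that of the others (for example 41.5%, 39.0% to 43.9%, in Healthy 227 and 46.7%, 40.7% to 52.8%, in Healthy 239). The shared stretches were few elsewhere, at 11.3% in Gbp7, 7.80% in Igtp, 4.90% in Gbp4, 4.78% in Irgm2, 2.095% in Gbp3 and 0.983% in Gbp2, and 0 in Irgm1 and Iigp1. In the last 500 bases they were at 0 in all of these but Gbp4, at 0.939%.

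Among the effector IRG genes, levels differed several-fold from healthy mouse to healthy mouse. Tgtp2 stood at 155, 131, 19.3 and 25.2 CPM in Healthy 227, 228, 239 and 240, and at 28.3, 15.9, 20.9 and 25.2 CPM in MI 244, 250, 255 and 256. Tgtp1 stood at 109.9, 86.0, 16.9 and 17.5 CPM in the same healthy mice, and at 19.87, 12.6, 16.6 and 16.8 CPM in the MI mice. For both copies Healthy 227 and 228 were high, and Healthy 239 and 240 lay among or near the MI mice, so the groups overlapped. The exact Poisson interval of Tgtp2 was 145 to 165 CPM in Healthy 227 and 16.3 to 22.7 CPM in Healthy 239, which covers counting error only. Iigp1, which encodes the effector Irga6 and was the most abundant member, stood at 980.0, 774, 178 and 259 CPM in the healthy mice and at 716, 340.4, 440 and 347 CPM in the MI mice. Here too Healthy 227 and 228 were highest, and MI 244 came next.

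The regulatory IRG genes were also highest in Healthy 227 and 228 among the healthy mice. Igtp, which encodes Irgm3, stood at 161, 106, 44.6 and 47.9 CPM in the healthy mice and at 145, 76.9, 89.3 and 66.9 CPM in the MI mice. Irgm2 stood at 71.2, 46.9, 20.6 and 21.3 CPM and at 44.9, 28.03, 30.3 and 27.1 CPM. In both genes every MI mouse lay between the highest and the lowest healthy mouse. Irgm1, a regulator also tied to autophagy, stood at 112, 57.9, 37.2 and 29.9 CPM in the healthy mice and at 169, 116, 128 and 113 CPM in the MI mice. Irgm1 was the only member whose groups did not overlap, by the margin between 112 CPM in Healthy 227 and 113 CPM in MI 256. The share of all genes whose groups did not overlap is not given here, so this sets Irgm1 apart from the other members only.

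The GBP genes were likewise highest in Healthy 227 and then 228 among the healthy mice. Gbp7 stood at 460.3, 298, 160.5 and 165 CPM in the healthy mice and at 229.9, 183, 201 and 191 CPM in the MI mice. Gbp4 stood at 339, 206, 74.5 and 82.1 CPM and at 193, 95.03, 121 and 104 CPM. Healthy 227 exceeded every MI mouse for both genes. Gbp2, a GBP that is anchored to membranes by a lipid tail, stood at 339, 257, 127 and 124 CPM and at 287, 178, 209 and 162 CPM. Gbp3 stood at 224, 154, 71.6 and 82.1 CPM and at 174, 133, 158 and 126 CPM. For these genes too the MI mice lay between the highest and the lowest healthy mouse.

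**Figure D1:**
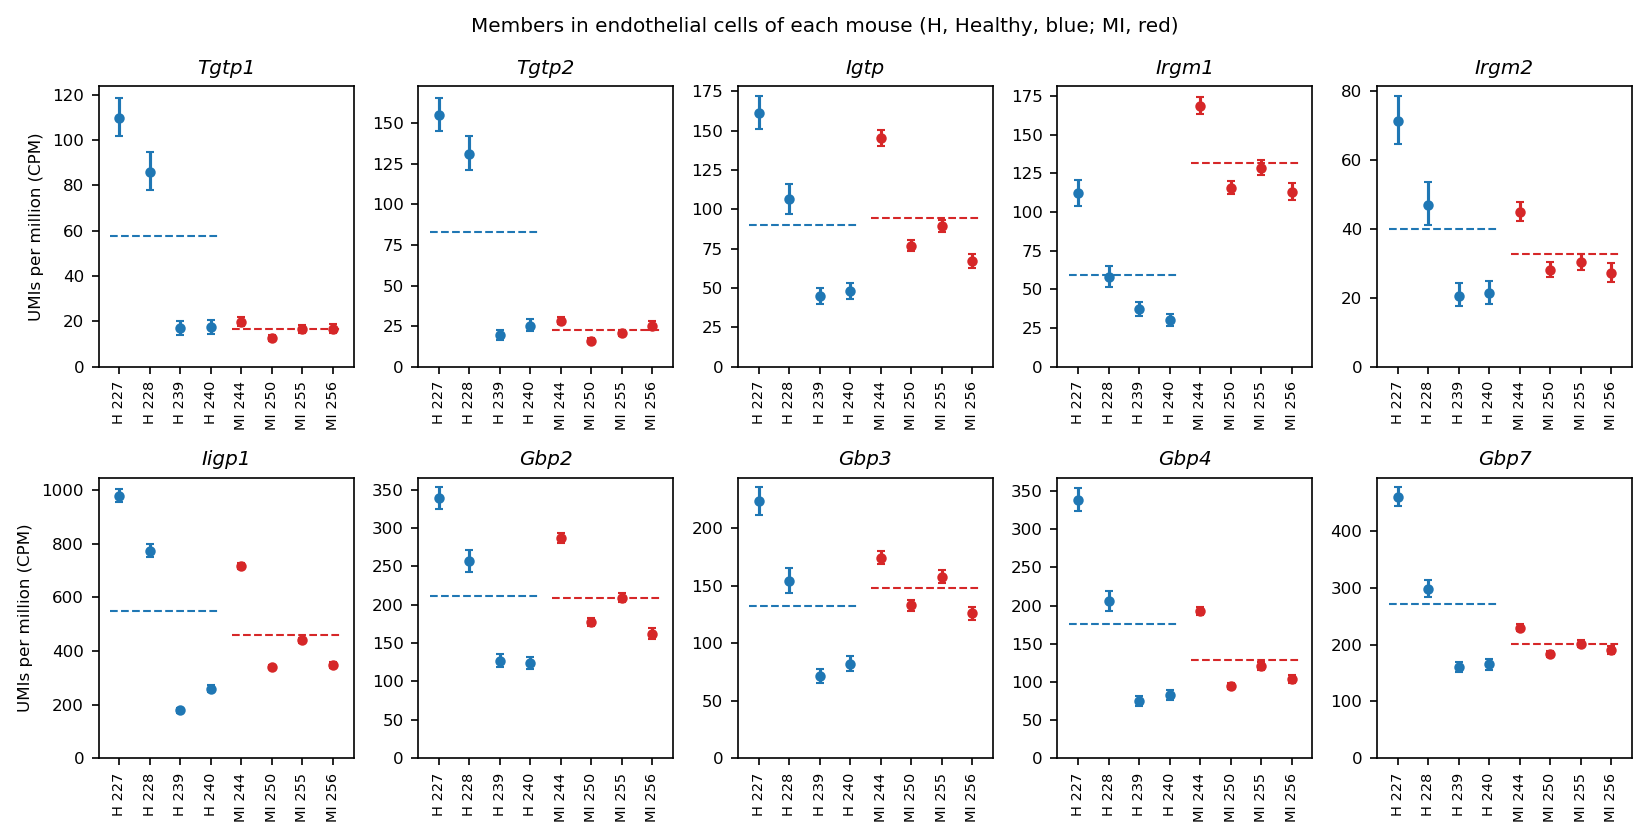
Level of each member (CPM, linear axis from 0) in the endothelial cells of each mouse, healthy in blue and MI in red. Bars are exact Poisson 95% intervals, which cover counting error only, and dashed lines are group means. In all 10 panels Healthy 227 and 228 are the highest healthy mice and MI 244 is the highest MI mouse.

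The first places were constant across the members and the later ones were not. Healthy 227 ranked first and Healthy 228 second among the healthy mice for 10 of 10 members, and Healthy 239 was lowest for 8 and Healthy 240 for 2. MI 244 ranked first among the MI mice for 10 of 10. The genes share a library in each mouse, so these ranks are not 10 independent observations. How often the mice took the same order over all genes is not given here, so the order cannot be called particular to the members. The ratio of the highest to the lowest healthy mouse ran from 2.74 for Gbp2 to 8.05 for Tgtp2, with 6.50 for Tgtp1, 5.51 for Iigp1 and 4.54 for Gbp4 in between. All 10 members reached a ratio of 2, against 18.3% of the 12258 genes tested. Among 6208 genes averaging 20 CPM or more, where counting error is smaller, 4.54% did so. The members' median ratio was 3.68 and that of all genes tested 1.41. Among the MI mice the members' ratios ran from 1.26 for Gbp7 to 2.17 for Igtp. Here Igtp, Iigp1 and Gbp4 reached 2, against 8.77% of genes tested and 2.45% of the 6208 genes averaging 20 CPM or more. Without Healthy 227 the ratio of Irgm1 fell to 1.94 and that of Gbp7 to 1.86. With the copied cells kept, the ratios ran from 2.69 to 7.72.

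**Figure D2:**
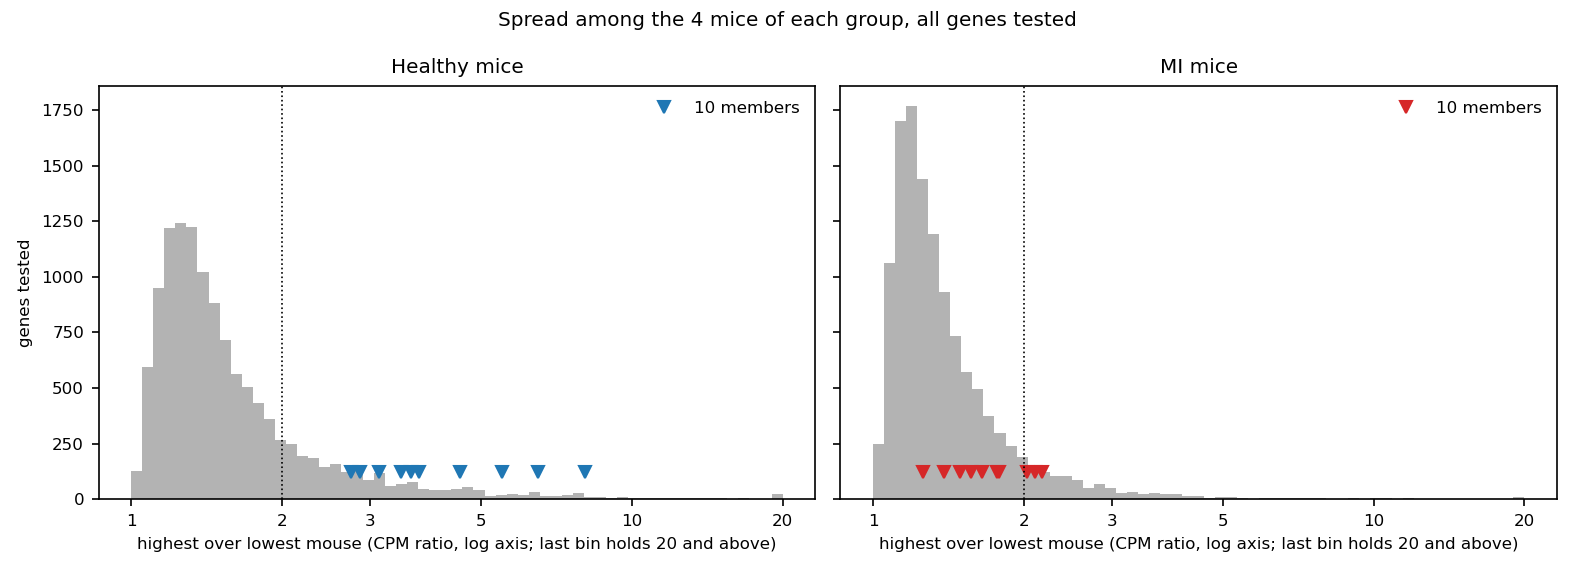
Ratio of the highest to the lowest of the 4 mice (log axis) for all 12258 genes tested, as grey histograms, in healthy mice at left and MI mice at right. Triangles mark the 10 members and the dotted line a ratio of 2, which all 10 members pass in healthy mice and 3 pass in MI mice.

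Other measures of the same mice are given beside these levels, and their part in the spread was not tested. The stress-gene list (8 immediate-early and heat-shock genes) summed to 4731, 7988, 6547 and 6687 CPM in Healthy 227, 228, 239 and 240, so the 2 high mice had the lowest and the highest sum. The haematopoietic marker list (15 genes) summed to 61.9, 73.9, 244 and 50.5 CPM in the same mice, with Ptprc, which encodes CD45, at 0 in Healthy 227, 228 and 240. Healthy 227 and MI 244, the male libraries, were each first in their group for every member, whereas Healthy 228, second for every member, was from a female. Gm42418, a locus that overlaps ribosomal RNA sequence, was at 3795 and 3752 CPM in Healthy 227 and 228 and at 804 to 1351 CPM in the other 6 mice. Capillary-like cells made up 58.7% of endothelial cells in Healthy 227 and 40.4% to 42.5% in the other healthy mice. Within capillary-like cells alone the ratio of Tgtp2 was 8.79 and that of Gbp2 2.84.

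Single cells were compared after each was thinned to 1000 UMIs, which left out 582 healthy and 0 MI endothelial cells with fewer. At this depth a UMI of at least 1 member was found in 81.0%, 70.8%, 43.6% and 45.8% of cells in Healthy 227, 228, 239 and 240 and in 58.0% to 71.8% in the MI mice. Cells with UMIs of 3 or more members made up 36.3%, 21.6%, 4.20% and 5.01% of the healthy mice's cells. For Iigp1, the share of cells with a UMI was 46.2% in Healthy 227 and 12.4% in Healthy 239, and it was 8.0% in pericyte or smooth muscle-like cells of all mice together. For Tgtp2 it was 14.2% and 12.3% in Healthy 227 and 228, and 1.79% to 2.82% in the other 6 mice. It was 2.35% in pericyte or smooth muscle-like cells and 0.649% in C1qa-led haematopoietic-like cells, both over all mice together, Healthy 227 and 228 included. The shares of those 6 mice thus lay around the first value and above the second. Single cells with a Tgtp2 UMI there cannot be told from background by this share alone. In the MI mice Tgtp2 averaged 8.83 CPM in pericyte or smooth muscle-like, 8.44 CPM in C1qa-led and 23.0 CPM in capillary-like cells. Without thinning, median depth was 1865 to 2753 UMIs in healthy and 3398 to 4677 UMIs in MI endothelial cells, and 4922 UMIs in pericyte or smooth muscle-like cells.

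The comparison of MI with healthy mice asks how the endothelium differs 7 days after infarction. Of the 8 members tested, Irgm1 rose and no other passed, in edgeR's quasi-likelihood test on UMIs summed per mouse with Benjamini-Hochberg adjustment over 12258 genes. Of all genes tested, 18.7% were called higher and 18.9% lower in MI mice, so 1 of 8 members is no larger a share than the background. Irgm1 averaged 59.3 ± 37.1 CPM (SD, n = 4) in healthy and 132 ± 25.7 CPM (SD, n = 4) in MI mice, a log2 fold change of 1.07 (SE 0.35, edgeR adjusted p = 0.0349), and the groups did not overlap. The call is fragile: the adjusted p rose above 0.05 without any 1 of Healthy 228, 239 or 240 or MI 244, 250 or 255, the log2 fold change then lying between 0.85 and 1.13. It was also lost with all deposited cells except copies (1.06, edgeR adjusted p = 0.0508) and in capillary-like cells alone (0.83, adjusted p = 0.142), the latter a setting added after the data were seen, and held with sex as a covariate, also added later (1.20, adjusted p = 0.00457). In bulk sums, more cells with Irgm1 RNA and more RNA per cell cannot be told apart. The sums also hold different mixes of classes. Capillary-like cells made up 40.4% to 58.7% of endothelial cells in healthy mice and 3.21% to 19.6% in MI mice. The setting with capillary-like cells alone held 4822 healthy and 1464 MI cells.

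The remaining 7 tested members had adjusted p from 0.197 to 0.992 in the same edgeR fit. Gbp4 averaged 175 ± 124 CPM (SD, n = 4) in healthy and 128 ± 44.5 CPM in MI mice (log2 -0.53, SE 0.45), and Gbp7 averaged 271 ± 142 and 201 ± 20.5 CPM (log2 -0.51, SE 0.30). The log2 fold changes of Irgm2, Iigp1, Gbp2, Igtp and Gbp3 were -0.37, -0.34, -0.10, -0.01 and 0.07, with SE from 0.31 to 0.49. These errors leave room for sizeable differences either way. Tgtp1 averaged 57.5 ± 47.6 CPM in healthy and 16.5 ± 2.96 CPM in MI mice, and Tgtp2 82.7 ± 70.5 and 22.6 ± 5.41 CPM, with log2 fold changes of -1.87 and -1.95 given with no test. Both differences rest on Healthy 227 and 228, and without Healthy 227 they were -1.35 and -1.45.

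**Figure D3:**
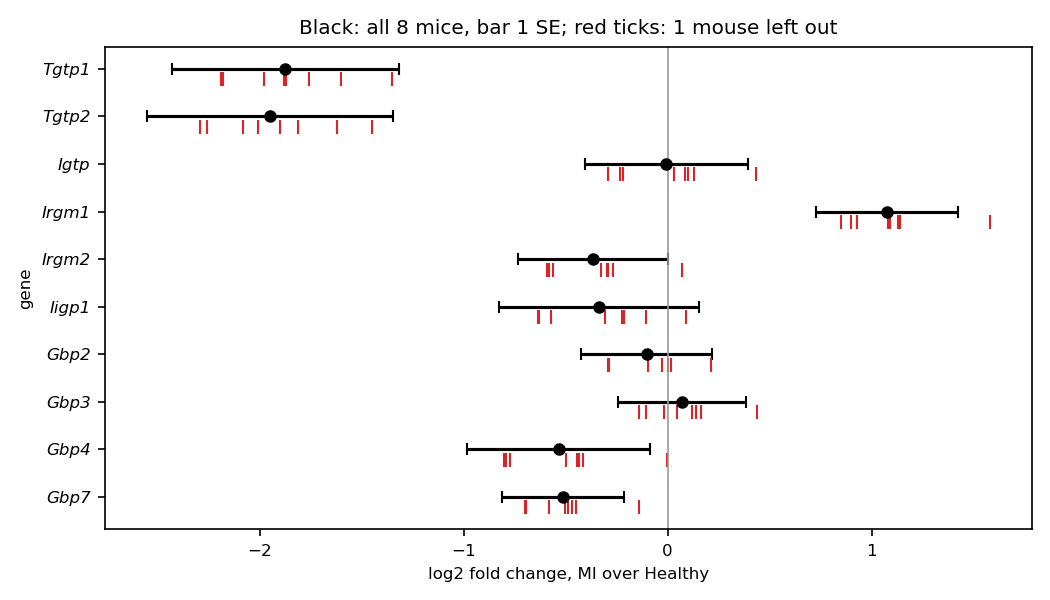
Log2 fold change of each member, MI over healthy, with 1 SE (black), and the same value with each of the 8 mice left out in turn (red ticks). The value for Irgm1 stays above 0 and those of Tgtp1 and Tgtp2 stay below -1 throughout, while those of Igtp, Irgm2, Iigp1, Gbp2 and Gbp3 cross 0.

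Haematopoietic markers were also higher in the endothelial sums of the MI mice, while the pericyte or smooth muscle list (51.9 to 136 CPM in healthy and 70.7 to 103 CPM in MI mice) and the platelet list (23.5 to 51.2 and 34.7 to 37.1 CPM) overlapped between groups. The fibroblast list (7 genes) overlapped too but ran higher in MI mice, at 9.97 to 35.4 CPM in healthy and 27.8 to 65.3 CPM in MI mice. The haematopoietic list summed to 351 to 681 CPM in the MI mice and 50.5 to 244 CPM in the healthy mice, with at most 1 of its 15 markers at 0 in an MI mouse. Irgm1 stood at 65.6 ± 16.0 CPM (SD, n = 4) in the haematopoietic-like cells led by C1qa of the MI mice. In those of healthy mice it was at 0 to 11.2 CPM (n = 2). In pericyte or smooth muscle-like cells it averaged 11.1 CPM in healthy and 76.9 CPM in MI mice (n = 4 each). Whether RNA of such cells has a part in the Irgm1 difference was not tested. Depth per cell also separated the groups, and with all cells thinned to 1000 UMIs the log2 fold change of Irgm1 was 1.08 (edgeR adjusted p = 0.0446).

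Cells with an Ifit3 UMI were then compared with cells without, within each mouse. Ifit3, an antiviral effector of the type I interferon response, was at 98.0 to 208 CPM in healthy and 170 to 251 CPM in MI mice. All 10 members were higher in cells with an Ifit3 UMI, in 8 of 8 mice each, and all 10 passed edgeR's quasi-likelihood test with mouse as a block (Benjamini-Hochberg over 12067 genes without Ifit3), against 4.08% of genes called higher. Their median log2 difference was 0.97, beside -0.01 over all genes tested.

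Among the regulatory genes, Igtp had the largest difference of the members (log2 1.25, SE 0.066, adjusted p = 2.38e-15). Its level was 242, 143, 119 and 110.4 CPM in cells with an Ifit3 UMI of Healthy 227, 228, 239 and 240, against 130.0, 94.9, 32.5 and 35.6 CPM in cells without. In the MI mice it was 222, 123, 132 and 97.6 CPM with and 99.2, 44.996, 46.7 and 48.6 CPM without. So cells without an Ifit3 UMI in Healthy 227 held more Igtp than cells with such a UMI in Healthy 239. Irgm1 differed by 1.08 (SE 0.047, adjusted p = 3e-17) and Irgm2 by 1.01 (SE 0.063, adjusted p = 1.68e-13).

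Among the effector genes, Iigp1 differed by 0.92 (SE 0.077, adjusted p = 1.41e-10), at 1316 against 849.9 CPM in Healthy 227 and at 446 against 134 CPM in Healthy 239. The ratio was 1.16 in Healthy 228, 1.55 in Healthy 227 and 3.33 in Healthy 239. Tgtp2 differed by 0.78 (SE 0.079, adjusted p = 8.72e-09), with 212 against 133 CPM in Healthy 227, 147 against 126 CPM in Healthy 228, 40.2 against 15.8 CPM in Healthy 239 and 51.9 against 19.945 CPM in Healthy 240. The high level of Tgtp2 in Healthy 227 and 228 was thus present in their cells without an Ifit3 UMI too. Tgtp1 differed by 0.86 (SE 0.072, adjusted p = 1.54e-10).

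Among the GBP genes, Gbp3 differed by 1.10 (SE 0.050), Gbp7 by 1.01 (SE 0.041), Gbp2 by 0.94 (SE 0.046) and Gbp4 by 0.71 (SE 0.047), with edgeR adjusted p from 4.86e-18 to 6.38e-13. Gbp4 had the smallest difference of the members, at 428 against 304 CPM in Healthy 227 and 252 against 157 CPM in MI 244. Pecam1, which does not belong to the response, had a ratio of 0.945 to 1.03 in the 8 mice.

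**Figure D4:**
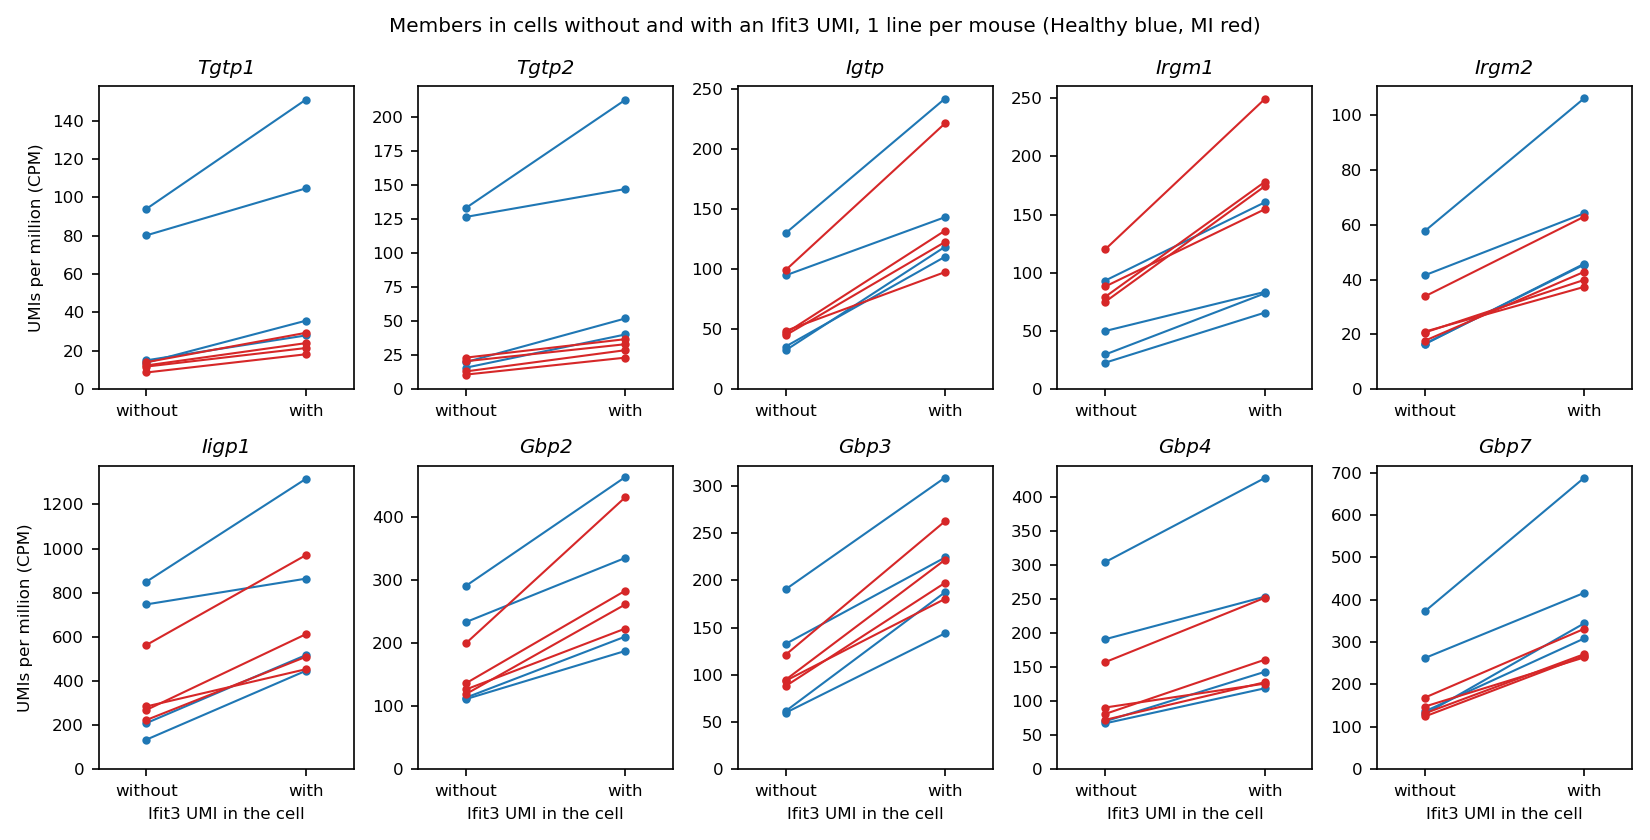
Level of each member (CPM) in endothelial cells without and with an Ifit3 UMI, 1 line per mouse, healthy in blue and MI in red. All 80 lines rise, and the lines of Healthy 227 and 228 start highest for Tgtp1, Tgtp2 and Iigp1.

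Cells with an Ifit3 UMI were deeper, at medians of 2089 to 5396 UMIs against 1832 to 4314 UMIs in cells without. With all cells thinned to 1000 UMIs, the members' log2 differences ran from 0.88 for Tgtp1 to 1.48 for Igtp. All 10 members also passed when cells were split by Ifit1, when at least 2 Ifit3 UMIs were asked for (1.02 to 1.67), within capillary-like cells alone (0.52 to 1.09) and without the interferon-like cluster (0.56 to 1.08). The last 2 settings were added after the data were seen. An Ifit3 UMI does not by itself mark a cell that expresses the gene: at 1000 UMIs it was found in 9.43% of capillary-like cells, and in 8.94% of pericyte or smooth muscle-like and 7.51% of C1qa-led haematopoietic-like cells, which may express it or hold free RNA. It was found in 14.6% of venous-like, 17.3% of endocardial-like and 71.2% of interferon-like cells. Across mice the share at 1000 UMIs was 7.11% to 13.8% in healthy and 12.4% to 17.5% in MI mice, and without thinning it was 31.6% to 43.5% in MI mice, and in healthy mice from 426 of 3550 cells (Healthy 239) to 23.4% (Healthy 227).

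Whether the Ifit3 difference itself differed between groups was tested as an interaction in the same edgeR fit. Gbp2 passed, with a difference larger in MI mice by 0.37 on the log2 scale (SE 0.068, adjusted p = 0.00646), against 0.058% of 12067 genes called in this direction. Its ratio of cells with to cells without an Ifit3 UMI was 1.59, 1.44, 1.85 and 1.69 in Healthy 227, 228, 239 and 240, and 2.16, 2.19, 2.08 and 1.76 in MI 244, 250, 255 and 256, so the groups overlapped. The call was lost with DESeq2 (0.34, adjusted p = 0.0834), with all deposited cells except copies (0.38, adjusted p = 0.135), without Healthy 228 (0.32, adjusted p = 0.0766) and without the interferon-like cluster (0.17, adjusted p = 0.57), and within capillary-like cells the value was -0.11. The other 9 members had adjusted p from 0.587 to 1.

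Levels differed between classes of endothelial cells, which were named from marker genes after clustering without the members and without the interferon lists. These are descriptions over mice with at least 20 cells of a class. The interferon-like cluster held 485 cells over all 8 mice, and 5 mice had at least 20 of them. Over these 5 mice it had the highest median ratio to capillary-like cells of any endothelial class for every member, and was above capillary-like cells in 5 of 5 mice for all 10. The median was 9.12 times the capillary-like level of the same mouse for Tgtp1, 5.48 times for Gbp2, 4.10 times for Iigp1 and 2.66 times for Irgm2. For Tgtp2, the near-identical copy of Tgtp1, it was 3.42 times. Over the mice the ratio ran from 1.27 to 9.75 for Tgtp2 and from 2.27 to 11.3 for Tgtp1. The capillary-like level of Tgtp1 was low in the MI mice, at 6.13 to 27.5 CPM. In Healthy 227, Tgtp1 was at 229 CPM in interferon-like and 101 CPM in capillary-like cells. There, Irgm2 was at 79.5 CPM in interferon-like cells (8 UMIs) and higher in venous-like cells, at 125 CPM. In MI mice, Gbp2 averaged 1302 ± 501 CPM (SD, n = 4) in this cluster and 206 ± 64.4 CPM in capillary-like cells. Venous-like cells were above capillary-like cells in 8 of 8 mice for Gbp2 (median 1.20 times) and Iigp1 (1.43 times), and stress-response-like cells in 8 of 8 mice for Tgtp1 (1.78 times), Tgtp2 (1.14 times) and Iigp1 (1.24 times). Plvap-high-like cells, of which 99.5% came from MI mice, were below capillary-like cells in 4 of 4 mice for 8 members, with medians of 0.527 times for Gbp7 and Gbp3. Cycling-like cells were below in 8 of 8 mice for Gbp4 (0.477 times) and Gbp7 (0.636 times). The 2 haematopoietic-like classes were below capillary-like cells for all 10 members at their medians.

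**Figure D5:**
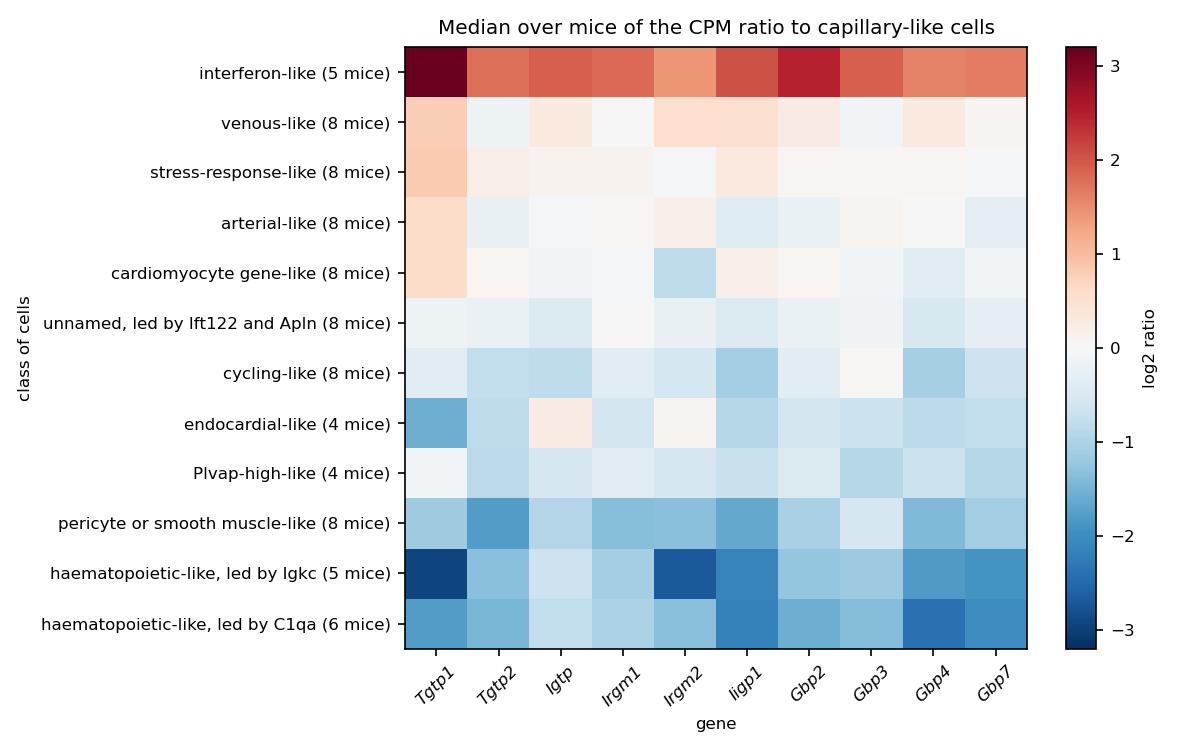
Median over mice of each member's CPM in a class of cells divided by that in capillary-like cells of the same mouse, as a log2 colour scale (red above, blue below), with the number of mice with at least 20 cells of each class. The interferon-like row is red for all 10 members, and the pericyte or smooth muscle-like and haematopoietic-like rows are blue.

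Inside classes, Irgm1 was tested between groups only in capillary-like cells, where it did not pass (edgeR adjusted p = 0.142). Its levels in other classes are descriptions. In venous-like cells Irgm1 was at 70.1, 73.0, 37.5 and 39.9 CPM in Healthy 227, 228, 239 and 240, and 181, 82.1, 139 and 106 CPM in MI 244, 250, 255 and 256. In the unnamed endothelial class led by Ift122 and Apln it was 69.7, 44.4, 32.7 and 37.4 CPM in the healthy mice and 175, 122, 134 and 110.2 CPM in the MI mice. The groups did not overlap in these classes, whereas in arterial-like, stress-response-like and capillary-like cells they did. They did not overlap either in cardiomyocyte gene-like cells (24.9 to 86.7 CPM in healthy and 88.2 to 263 CPM in MI mice) or cycling-like cells (11.7 to 57.7 and 97.4 to 140 CPM). The same held outside the endothelium in pericyte or smooth muscle-like cells, at 0 to 25.6 CPM in healthy and 57.8 to 127 CPM in MI mice. The healthy mice together held only 217, 130 and 212 cells of these classes, so counting error is large there. For no class is the share of all genes without overlap given here.

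The spread among healthy mice was also present inside classes. Tgtp2 ran from 17.1 to 138 CPM over the 4 healthy mice in arterial-like cells, from 19.99 to 150 CPM in venous-like cells and from 21.4 to 182 CPM in stress-response-like cells. Iigp1 ran from 153 to 686 CPM in arterial-like cells and from 417 to 1134 CPM in venous-like cells. Only Healthy 227 had 20 or more interferon-like cells, where Tgtp2 was at 338 CPM, beside 51.2 to 108 CPM in the 4 MI mice.

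Members left aside, the genes whose levels over the 8 mice were most like those of Tgtp2 were Gm4070, H2-Q10, Gm42418, Gm8909 and Cd274. Likeness was the root mean square difference of log2 CPM centred over the mice, among genes averaging 20 CPM or more, and was 0.25, 0.29, 0.38, 0.39 and 0.45 for these, beside a median of 1.22. Gm4070 stood at 118, 73.1, 17.96 and 15.2 CPM in the healthy mice and at 9.95 to 16.6 CPM in the MI mice. Cd274, which encodes the checkpoint ligand PD-L1, stood at 102, 77.9, 22.6 and 20.001 CPM and at 21.9 to 34.4 CPM. Among the genes outside the members most like Igtp were Tap1, Ifi47, Hist1h1e and Psmb9 (0.14, 0.27, 0.27 and 0.28, beside a median of 0.67). Tap1, a subunit of the peptide transporter that loads MHC class I, stood at 186, 122, 53.2 and 67.5 CPM in the healthy mice and at 92.1 to 179 CPM in the MI mice.

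The other IRG and GBP genes were a list of 21, of which 15 had a row. Of 11 tested between groups, 4 were lower and 0 higher in MI mice by edgeR, beside 18.9% and 18.7% of all genes, and their median log2 fold change was -0.40, beside -0.02 over all genes. The lower ones were Gm4070 (log2 -2.17, adjusted p = 0.016) and Gvin1 (-1.70, adjusted p = 0.0333), from the very large inducible GTPases, and 9930111J21Rik2 (-0.40, adjusted p = 0.00758) and 9930111J21Rik1 (-1.01, adjusted p = 0.0252), the last being too low in abundance for the rule on named genes and named after its values were seen. Gm4070 and Gvin1 shared the healthy spread, with ratios of 7.74 and 6.80, whereas that of 9930111J21Rik2 was 1.31. Gvin1 stood at 36.3, 27.4, 6.34 and 5.33 CPM in Healthy 227, 228, 239 and 240 and at 4.72 to 7.84 CPM in the MI mice. For Gm4070 and Gvin1, Healthy 239 and 240 thus lay near or among the MI mice, and the differences rest on Healthy 227 and 228. The groups overlapped for these genes and for 9930111J21Rik1, but not for 9930111J21Rik2. Gbp5 (65.5 CPM in healthy and 42.8 CPM in MI mice on average, log2 -0.69, adjusted p = 0.144), Gbp9 (-0.31, adjusted p = 0.248), Gm4951 (0.90, adjusted p = 0.104), F830016B08Rik (0.52, adjusted p = 0.401) and Irgq (-0.13, adjusted p = 0.507) did not pass. By Ifit3 UMI, 9 of 12 tested were higher, led among those named by Gm4951 (1.72, adjusted p = 5.75e-16), F830016B08Rik (1.26) and Gbp5 (1.12), and Irgq, which interferon is not known to induce, differed by 0.13 (adjusted p = 0.698). Ifi47, an IRG gene named after its values were seen, differed by 1.21 by Ifit3 UMI (adjusted p = 3.65e-18) and by 0.18 between groups (adjusted p = 0.585).

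Of 23 type I interferon response genes tested between groups, 10 were higher and 2 lower in MI mice (median log2 0.37), beside 18.7% and 18.9% of all genes, and the difference from the members was not tested. Irf7, the transcription factor that amplifies the type I response, rose from 110.4 ± 19.4 to 320.1 ± 91.2 CPM (SD, n = 4; log2 1.45, edgeR adjusted p = 0.00069), and Isg15 (0.37, adjusted p = 0.0867), Bst2 (0.14, adjusted p = 0.514) and Rsad2 (-0.10, adjusted p = 0.766) did not pass. By Ifit3 UMI all 22 tested were higher (median 1.56), and the interaction with group passed for 3 of them, all with a smaller difference in MI mice, beside 0.191% of all genes called in this direction, among them Isg15 (-0.41, adjusted p = 0.00803) and Irf7 (-0.40, adjusted p = 0.0361). Of the interferon-gamma response genes, 4 of 21 were higher, near the 18.7% of all genes, and 2 were lower, a smaller share than the 18.9% of all genes, in MI mice (median 0.04). The 4 most abundant, H2-D1 (0.31), B2m (0.22), H2-K1 (0.19) and Psmb8 (-0.04), did not pass (adjusted p from 0.357 to 0.898). By Ifit3 UMI all 21 were higher (median 0.41).

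Of 14 receptor and signal transduction genes tested, Socs3, a feedback inhibitor of cytokine receptors, rose in MI mice (log2 0.79, adjusted p = 0.00381) and Irf1, an interferon-gamma induced transcription factor that also drives IRG and GBP genes, fell (-0.51, adjusted p = 0.00487, 207 ± 18.9 to 154 ± 16.4 CPM, SD, n = 4). The receptor gene Ifngr1 (-0.10, adjusted p = 0.503) and Jak1 (0.10, adjusted p = 0.405) did not pass. So 1 of 14 was higher and 1 lower, smaller shares than the 18.7% and 18.9% of all genes. By Ifit3 UMI, 5 of 14 were higher, among them Irf9 and Socs1, beside 4.08% of all genes. Of the 12 autophagy-related genes that direct IRG and GBP proteins to membranes, 0 were higher and 2 lower in MI mice, Gabarapl2 (-0.37, adjusted p = 0.00696) and Gabarapl1, near the 18.9% of all genes called lower, and 0 passed in either direction by Ifit3 UMI in the edgeR fit. Map1lc3b (0.14), Gabarap (0.14) and Sqstm1 (0.12) did not pass between groups (adjusted p from 0.133 to 0.194).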

How the data were processed

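UMI counts per gene and cell were deposited by the authors as 1 raw table, made per the labels and the study's methods with Cell Ranger, mm10 and Seurat 2.3 in R 3.5.2, after cells with under 400 genes or over 20% mitochondrial counts were left out. Of 31028 cells, 2333 copies (at least 90% of UMIs matched in another library) were left out. Cells were clustered with Seurat 5.3.0 (32 components, resolution 0.6), without the members and interferon lists. Counts were summed per mouse over endothelial clusters and tested with edgeR 4.0.16 (TMM, quasi-likelihood, Benjamini-Hochberg, 0.05), which was first tested on simulated data. Standard errors are the log2 fold change over the square root of the F statistic. Intervals are 95% exact ones and cover counting error only, and a mouse at 0 was set to 3 counts for ratios. Doublets were not called. The members and lists were chosen with earlier results of these data known. Named genes were all members, other family genes with at least 5 CPM, the 4 most abundant of each list and the 5 genes outside the members most like Tgtp2 and Igtp. A gene that this rule names is not reported here. Alternatives were DESeq2 1.42.0, no low-count filter, copies kept, all cell types, thinning, other Ifit3 splits and leaving out each mouse. Each mouse was a separate animal.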

Additional observations from a re-analysis of the deposited data

Results flagged for a closer look

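For Gbp2, the log2 difference between cells with and without an Ifit3 UMI was 0.373 larger in MI than in healthy mice, by the interaction term of the edgeR fit (adjusted p = 0.00646, 4 mice in each group). The ratios of the mice overlapped between groups, and the call was lost with DESeq2 (adjusted p = 0.0834), with all deposited cells except copies (0.135), without Healthy 228 (0.0766) and without the interferon-like cluster (0.57), and the value turned to -0.114 within capillary-like cells.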

How the results depend on the processing

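All 10 members were called by Ifit3 UMI under each of 17 alternatives, and the count of members with a 2-fold spread over healthy mice stayed at 8 to 10. The count called between groups (1 in the reported fit) was 0 with all deposited cells except copies and within capillary-like cells, and 0 to 1 on leaving out a mouse. The count for the interaction (1) was 0 with DESeq2, with all deposited cells except copies, within capillary-like cells and without the interferon-like cluster, and 0 to 1 on leaving out a mouse. For Gbp2 the interaction was -0.114 within capillary-like cells. Between groups, the value of Igtp (-0.01) turned to 0.0155 without the low-count filter, 0.0763 with copies kept, 0.123 with thinned cells and 0.051 with sex as a covariate, and that of Gbp2 to 8.41e-05 with thinned cells. On leaving out a mouse the log2 values ran from -0.291 to 0.433 for Igtp, -0.591 to 0.0689 for Irgm2, -0.633 to 0.0894 for Iigp1, -0.294 to 0.211 for Gbp2 and -0.139 to 0.436 for Gbp3. The cause of these changes was not tested. No paired analysis was possible because the groups share no replicate numbers. Capillary-like cells only, the interferon-like cluster left out and sex as a covariate were chosen after seeing the data.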

Other observations

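Igtp stood apart in platelet-like cells. In the 27 such cells of Healthy 239, the only mouse with 20 or more, it had 40 of 47798 UMIs (836.9 CPM), which was 20.3 times its level in the capillary-like cells of the same mouse. The other members had 0 to 4 UMIs there. The value has no replicate and was not tested.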
